A study of Bos taurus with 38 samples.

Results

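Of the 24616 annotated genes in the bovine liver count tables, 17 were on in the liver of some cows and off in that of others. Levels were CPM, the read pairs of a gene per 1000000 read pairs on genes in the same library. A library was taken as on at 3 CPM or more, as off under 0.5 CPM and as intermediate between these, and a cow as on or off when both of its libraries were. A gene was chosen when at least 3 of the 19 cows were on and at least 3 other cows were off. These levels chose the genes, so they are a description, and p-values are given only for the labels for breed, parity, residual feed intake and diet. Of all annotated genes, 19083 had at least 1 read pair in the 38 libraries.

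The study examined liver transcription in relation to residual feed intake (RFI), the feed a cow eats minus the feed she is predicted to need, so that a low-RFI cow is the more efficient one. Liver biopsies came from 9 Holstein and 10 Jersey cows of a research herd, each sampled once on a control, low-concentrate diet (C) and once on a high-concentrate diet (HC), which gave 38 libraries. The high-RFI Holsteins were cows 2, 7, 9 and 15 and the low-RFI Holsteins cows 1, 6, 11, 16 and 19. The high-RFI Jerseys were cows 3, 4, 12, 13 and 18 and the low-RFI Jerseys cows 5, 8, 10, 14 and 17. Parity, the number of calvings, was 1 in 7 cows, 2 in 5 cows and 3 in 7 cows.

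The liver makes glucose for milk, handles fat from body reserves, forms bile acids and clears foreign compounds. A gene that is transcribed in the liver of only some animals is averaged out in group means and is seen when single animals are compared. Of the 17 genes, 1 was paired with a symbol in the study's gene lists, REC8 (ENSBTAG00000002705). REC8 encodes a subunit of the cohesin ring that holds sister chromatids together in meiosis, and is best known from germ cells. The other 16 are named by identifier only, and neither their roles nor their positions were analysed here. In a bulk biopsy, fewer cells of a type and less RNA per cell cannot be told apart.

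The libraries held between 17472750 and 24478289 read pairs on genes, so that the limit of 0.5 CPM was 8.74 to 12.2 read pairs and that of 3 CPM 52.4 to 73.4 read pairs. A library with 0 read pairs of a gene allows a level of up to 0.123 to 0.172 CPM by counting error alone. CYP7A1, the rate-limiting enzyme of bile acid synthesis in hepatocytes, was at 37.97 to 1042 CPM in all 38 libraries; it was picked after its values were seen. Of 51 markers listed for liver and other cell types, 2 had an identifier. CD3D, a T cell receptor subunit, was at 3.997 ± 1.084 CPM (SD, n = 9 cows) in the Holsteins and 3.84 ± 1.19 (n = 10) in the Jerseys. NKG7, a granule protein of natural killer and T cells, was at 11.1 ± 2.56 and 9.22 ± 1.44 CPM. The part of other cell types in the levels of the 17 genes was not tested.

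Libraries of 4 cows went against their labels. Over the 500 most variable genes, the C library of cow 10 resembled the C library of cow 17 (r = 0.54) more than the HC library of its own cow (r = -0.05), and the HC libraries of both cows resembled each other (r = 0.73). The C library of cow 14, a Jersey, resembled the HC library of cow 15, a Holstein (r = 0.55), and the HC library of cow 14 resembled the C library of cow 15 (r = 0.40). The 2 libraries labelled cow 14 correlated at r = -0.20 and those labelled cow 15 at r = -0.19. With the 17 genes taken out of these 500, in 27 of the 30 libraries of the other 15 cows the most similar library was the other one of the same cow. The 3 exceptions were both libraries of cow 5 and the C library of cow 4. The same 4 cross resemblances stood without the 17 genes, except that the C library of cow 10 was then nearest to that of cow 4 (r = 0.54), ahead of that of cow 17 (r = 0.50). These r are across genes of pairs of libraries prepared alike, and are a description.

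**Figure D1:**
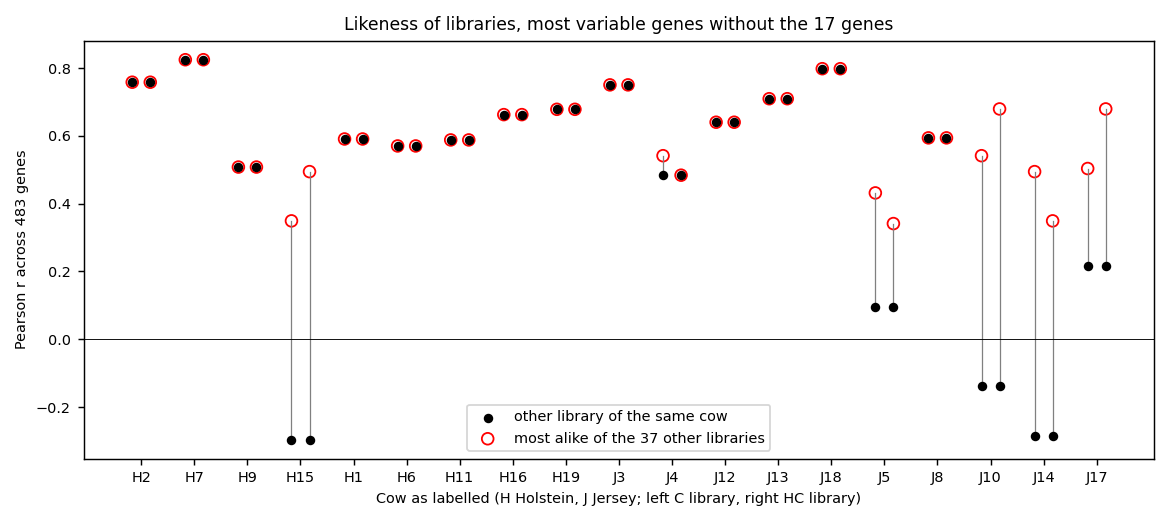
Pearson r across the most variable genes, without the 17, between each of the 38 libraries and the other library of the same cow (black), and between it and the most similar of all other libraries (red circle), by cow as labelled. Black and red coincide in 27 libraries, while in all 8 libraries of cows 10, 14, 15 and 17 the red circle lies well above the black point.

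The 17 genes showed the same crossing. Over them, the crossed pairs correlated at r = 0.96 to 0.98, against 0.60 to 0.74 between the libraries under 1 label. The C libraries of cows 10 and 17 were in the same state (on, intermediate or off) for 12 of the 17 genes and their HC libraries for 14, with 0 genes on in one and off in the other. The 2 libraries labelled cow 10 shared 10 states, with 3 genes on in one and off in the other, and those labelled cow 17 shared 11, with 2 such genes. The C library of cow 14 and the HC library of cow 15 shared 14 states, and the HC library of cow 14 and the C library of cow 15 shared 15, with 0 opposite genes in both pairs. Of 8 genes that separated the other Holsteins from the other Jerseys in every library, none among the 17, the levels in the libraries labelled cow 14 C and cow 15 HC were nearer the Holstein mean in 8. In the HC library of cow 14 they were nearer the Jersey mean in 5 and in the C library of cow 15 in 7. All labels were used as given. Main numbers of genes called are also given without these 4 cows, while several other fits and values are given only with them. Crossed labels, or libraries against their labels, here means this resemblance alone, and an exchange of labels was not tested. The rule chose the same 17 genes without cows 10 and 17, without cows 14 and 15 and without all 4.

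Several of the 17 genes had levels that fell into steps with wide empty ranges between them. ENSBTAG00000021407 was off in cows 2, 13 and 16, at no more than 0.211 CPM in any of their libraries, and on in the other 16 cows. In cow 1 it was at 40.3 (C) and 40.1 (HC) CPM and in cow 4 at 39.0 and 38.7 CPM. Cow 18 followed with 34.5 and 28.2 CPM. In the other 11 on cows outside the crossed labels of cows 10 and 17, its levels lay from 11.4 to 22.8 CPM. The C libraries of cows 10 and 17 were at 28.0 and 35.5 CPM and their HC libraries at 18.004 and 16.9 CPM. No cow mean lay between 0.131 and 15.6 CPM, and the off cows came from both breeds.

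ENSBTAG00000009656 was off in 6 cows and on in 13, and no cow was intermediate. The highest off library had 0.199 CPM, and 8 of the 12 off libraries held 0 read pairs. The on cows began at 11.8 (C) and 10.2 (HC) CPM in cow 16 and reached 53.4 and 53.0 CPM in cow 1. Cow 7, a Holstein, was at 0 in both libraries, as was cow 3, a Jersey, whereas the remaining Holsteins were all on. Among the Jerseys, 5 cows were on and 5 were off.

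ENSBTAG00000038128 was on in 8 Holsteins and intermediate in the ninth, cow 16, at 3.28 and 2.38 CPM. In the Jerseys it was on in 5 and off in 5, and 9 of the 10 off libraries held 0 read pairs. Most on cows lay between 3.25 and 12.3 CPM, while cow 7 had 25.1 and 27.9 CPM and cow 11 had 32.1 and 32.3 CPM. The libraries labelled cow 14 C and cow 15 HC were at 38.1 and 48.6 CPM, against 11.7 and 7.37 CPM in the other libraries with these labels. The high level was seen in cows 7 and 11 and in 1 library each labelled cow 14 and cow 15.

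ENSBTAG00000021077 followed ENSBTAG00000038128 across the 38 libraries with r = 0.92 on the log2(CPM + 0.5) scale, the only pair of the 17 genes, among 136, at or above 0.8 in size. It was on in cows 1, 2, 7, 11, 14, 15 and 18 and off in cows 3, 9, 10, 12, 13, 16 and 17. The 2 genes parted in cow 9, where ENSBTAG00000021077 was at 0 (C) and 0.197 (HC) CPM and ENSBTAG00000038128 at 4.401 and 3.25 CPM. They parted likewise in cow 16, with 0.101 CPM in both libraries for ENSBTAG00000021077.

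ENSBTAG00000011985 had 3 levels. It was off in cows 1, 2, 6, 14 and 15, at up to 0.151 CPM. In the C libraries of cows 7 and 11 it reached 8.07 and 8.64 CPM, and cows 5, 8 and 16 had cow means of 5.97 to 6.78 CPM. The other 9 cows had means from 3.02 to 3.62 CPM. No cow mean lay between 0.0780 and 3.02 CPM, or between 3.62 and 5.97 CPM.

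**Figure D2:**
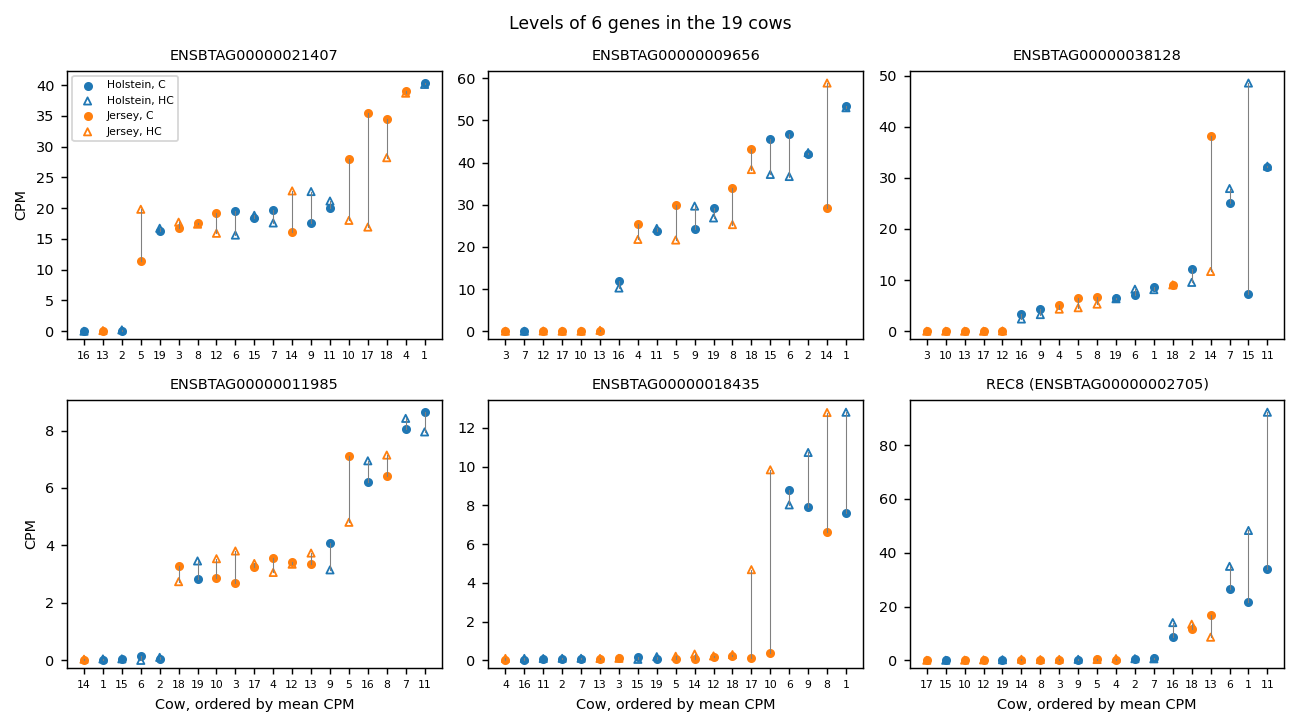
CPM of 6 genes in the C (filled circle) and HC (open triangle) library of each of the 19 cows, ordered by cow mean; blue is Holstein and orange Jersey, and a line joins the libraries of a cow. ENSBTAG00000021407 is at 0 to 0.211 CPM in 3 cows and at 11.4 CPM or more in the other 16, and several of the longest lines among the other genes belong to cows labelled 10, 14, 15 and 17.

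REC8 was on in 6 cows. In the low-RFI Holsteins it was at 21.9 (C) and 48.3 (HC) CPM in cow 1, 26.4 and 35.0 CPM in cow 6, 33.9 and 92.2 CPM in cow 11 and 8.79 and 14.0 CPM in cow 16, while cow 19 had 0.245 and 0.240 CPM. In the Jerseys it was on only in the high-RFI cows 13, at 16.8 and 8.62 CPM, and 18, at 11.8 and 13.4 CPM. The other 12 cows had 0.0503 to 0.744 CPM, and each of the 20 libraries of off cows held at least 1 read pair. REC8 was thus low but detected in cows called off, unlike the next gene.

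ENSBTAG00000021565 was on in 3 cows, the Holsteins 6 (5.91 and 4.93 CPM), 9 (5.12 and 3.69 CPM) and 11 (3.89 and 3.71 CPM). Of the 32 libraries of the other 16 cows, 29 held 0 read pairs and the others 1 each. Over all libraries 550 read pairs were counted in the Holsteins and 2 in the Jerseys, a ratio of 314 in CPM with an exact 95% interval of 86.5 to 2599 for counting error alone. All of the level in the Holsteins but 1 read pair came from 3 cows.

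ENSBTAG00000018435 was on in the Holsteins 1, 6 and 9 and the Jersey 8, at 6.63 to 12.8 CPM, and off in 13 cows, at up to 0.327 CPM. In cow 10 it was at 0.388 (C) and 9.83 (HC) CPM and in cow 17 at 0.107 and 4.68 CPM. Both cows were therefore split, with the C library off and the HC library on, and no cow was intermediate.

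The other 9 genes are given by their range. ENSBTAG00000015638 was on in 13 cows at 3.60 to 13.5 CPM and off in 5 (cows 3, 11, 15, 16 and 19) at 0.107 to 0.474 CPM, with cow 14 intermediate, and no cow mean lay between 0.426 and 4.52 CPM. ENSBTAG00000011976 was on in 6 cows with a median of 9.12 CPM and off in 8, and ENSBTAG00000019554 was on in 12 cows, from 3.31 CPM to 26.1 CPM in the C library of cow 3, and off in cows 8, 11 and 16. ENSBTAG00000037539 was on in the Holsteins 2, 7 and 11, at 3.99 to 7.81 CPM, and off in 4 cows, while 10 cows were intermediate. ENSBTAG00000039237 was on in 6 cows and intermediate in 9, and its 4 off cows had at most 1 read pair a library. ENSBTAG00000015792 was on in 9 cows with a median of 3.95 CPM, off in 3 and intermediate in 7. ENSBTAG00000001308, ENSBTAG00000004270 and ENSBTAG00000047764 are described with the breeds.

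The lowest of the on levels lay close to the limit. Ranked by the third highest cow, the last genes inside were ENSBTAG00000001308 at 3.27 CPM, ENSBTAG00000021565 at 3.69 CPM and ENSBTAG00000037539 at 3.99 CPM in the lower library of that cow. Just outside were ENSBTAG00000001571 at 2.97 CPM, ENSBTAG00000026163 at 2.94 CPM and ENSBTAG00000046980 at 2.94 CPM. The limit thus lay between genes of nearly the same level.

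**Figure D3:**
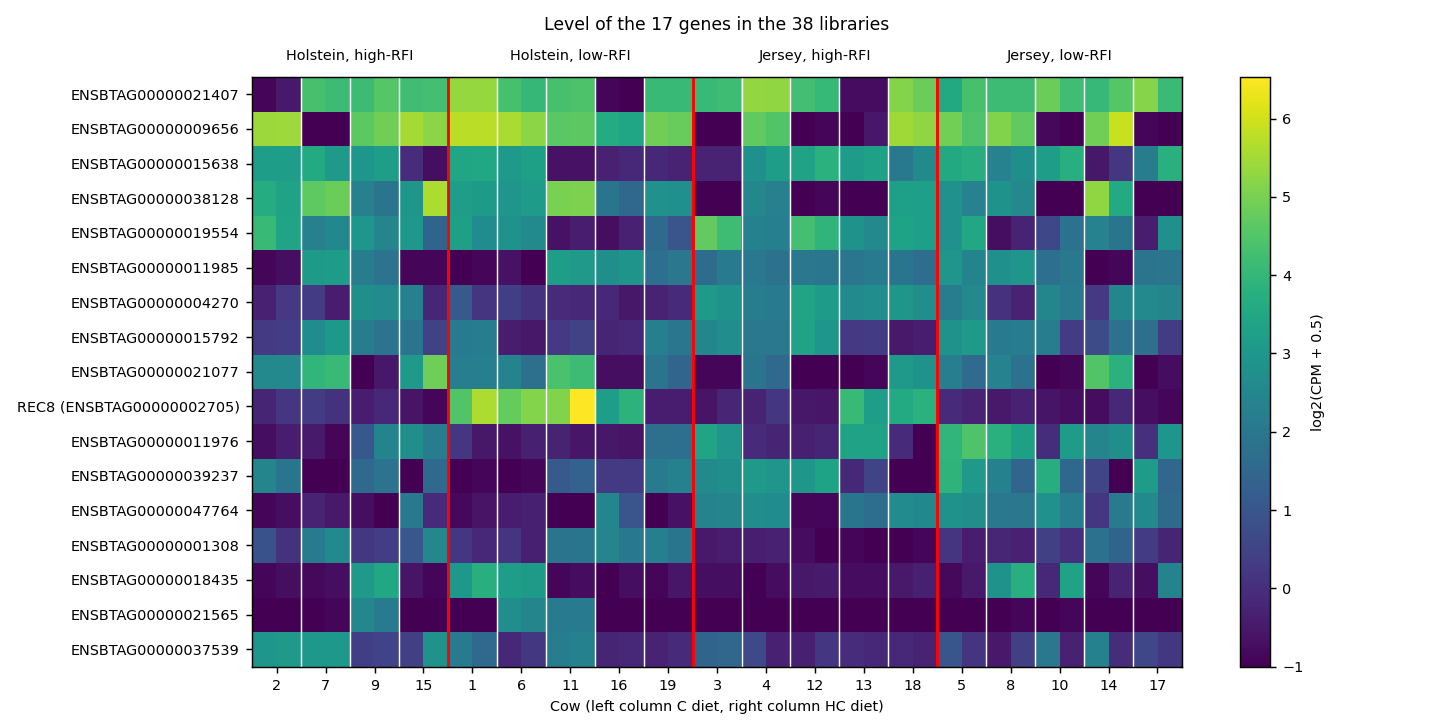
Level of the 17 genes (rows, by number of on cows) in the 38 libraries (columns, C left and HC right within each cow), as log2(CPM + 0.5), with the cows grouped by breed and RFI group. Neighbouring columns of a cow mostly have the same colour, and each gene has both bright and dark cows.

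A cow's 2 libraries were mostly alike for these genes. Of 323 combinations of gene and cow, 140 were on in both libraries, 109 off in both, 66 intermediate and 8 split, and the libraries shared their state in 82.7%. All 8 splits were in cows 10, 14, 15 and 17, where the libraries shared their state in 60.3% of 68 combinations. In the other 15 cows, 0 combinations were split and 88.6% shared their state. Over the 17 genes, each of these 30 libraries was most similar to the other library of its own cow, with r from 0.91 to 0.99. The rule asks for like libraries in at least 6 cows, so this agreement is partly fixed by the choice of genes. In the 15 cows it is also partly fixed by the choice of cows, since the others were set aside for unlike libraries.

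The state of the second library can be read freely only where it chose neither the genes nor the cows. With the same limits on the C libraries alone, 52 genes were chosen, the 17 among them. In the 15 cows outside the crossed labels, a C library that was on went with an HC library of the same cow that was on in 79.0% of 272 cases and off in 5.51%. The HC library of another cow of the same breed was on in 51.9% and off in 22.4%. Where the C library was off, the HC library of the cow was off in 68.9% of 267 cases and on in 0.749%, against 46.0% and 21.9% in another cow of the breed. Chosen on the HC libraries alone, 42 genes gave 79.5% on and 0.893% off after on, and 82.1% off and 1.49% on after off. Opposite states in these 15 cows were 0.749% to 5.51% within a cow and 21.9% to 25.3% between cows of a breed. This range leaves out the 4 cows with crossed labels, set aside for unlike libraries, so the low values within a cow are partly fixed. Over all 19 cows, opposite states within a cow were 9.01% after on and 6.27% after off on the C choice, and 4.396% and 4.91% on the HC choice, against 23.5% to 25.3% between cows of a breed. In cows 10 and 17 the C choice gave 22.2% on and 24.4% off after on, over 45 cases. In cows 14 and 15 it gave 18.5% off after on, over 27 cases, and 26.8% on after off, over 41.

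**Figure D4:**
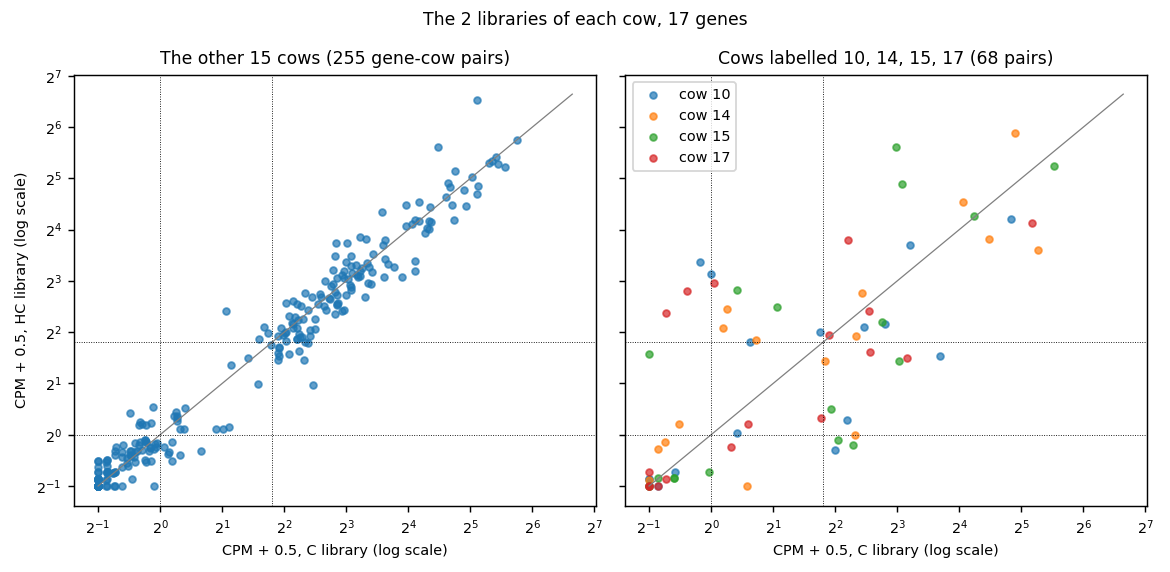
CPM + 0.5 of the 17 genes in the C library (x axis) against the HC library (y axis) of the same cow, on log scales, for the 15 other cows (left) and for cows 10, 14, 15 and 17 (right); dotted lines mark 0.5 and 3 CPM, each with 0.5 added. The upper left and lower right corners, on in one library and off in the other, are empty on the left and hold 8 points on the right.

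The number of the 17 genes that were on in a cow overlapped between all groups. It ranged from 4 to 10 in the Holsteins (median 8) and from 4 to 11 in the Jerseys (median 7). Cow 5 had the most on, 11, and cows 10, 16 and 17 the fewest, 4 each. By parity the medians were 6, 9 and 9 genes on for parity 1, 2 and 3, with ranges of 4 to 9, 4 to 10 and 7 to 11. In high-RFI and low-RFI cows the median was 7. Of the 136 pairs of genes 1, ENSBTAG00000004270 and ENSBTAG00000019554, was never on in one and off in the other in the same cow.

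Between the breeds, 3 of the 17 genes passed the edgeR quasi-likelihood test (adjusted p under 0.05, the libraries of a cow summed, parity and RFI group in the model), against 3.35% of 12419 genes tested. Of these, 2 were higher in the Jerseys, where 1.7% of the tested genes were called, and 1 was higher in the Holsteins, where 1.65% were. The levels that chose these 3 genes already leaned by breed. ENSBTAG00000047764 was on only in Jerseys, ENSBTAG00000004270 was off only in Holsteins, and ENSBTAG00000001308 was on only in Holsteins and off only in Jerseys. Numbers of breed calls among the 17, here and below, thus cannot be read against the share of all genes. At an unadjusted p under 0.05 there were 5 of 17, against 19.4% of all genes tested. These 5 include ENSBTAG00000021565 (unadjusted p = 0.00177, edgeR), which was tested only through Holsteins, so its difference was built in. The 14 genes other than the 3 called did not pass the adjusted test, and the signs of their differences were mixed.

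ENSBTAG00000047764 was off in 7 of the 9 Holsteins and on in 6 of the 10 Jerseys. The Holstein libraries of those 7 cows had 0 to 0.343 CPM, and cow 16 (5.00 and 1.47 CPM) and cow 15 (3.63 and 0.429 CPM) were higher. The Jersey cow means ran from 2.18 to 6.39 CPM except in cow 12, which had 0.0471 CPM. The groups overlapped in these cows. The log2 fold change, Jersey minus Holstein, was 2.88 (SE 0.74; adjusted p = 0.0419, edgeR; 9 and 10 cows). Permuting the breed labels over cows (exact, two-sided) gave p = 0.000823, 0.0412 after adjustment over all 12419 genes, and this was the only one of the 17 genes called that way, against 2.54% of all genes. Without cows 10, 14, 15 and 17 the exact permutation test gave it p = 0.00326 (0.0795 adjusted) and called 0 of the 17, against 1.88% of all genes.

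ENSBTAG00000004270 was on in 8 Jerseys and off in 0, and on in 1 Holstein and off in 3. The Holsteins had a lowest cow mean of 0.303, a median of 0.504 and a highest of 5.98 CPM, the last in cow 9. The Jerseys had a lowest cow mean of 0.447 in cow 8, a median of 4.90 and a highest of 9.32 CPM. Cow 9 therefore lay among the Jerseys and cow 8 among the Holsteins. The log2 fold change was 2.15 (SE 0.47; adjusted p = 0.0195, edgeR), and the exact permutation p was 0.00201 (0.0625 adjusted over all genes).

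ENSBTAG00000001308 went the other way, on in 4 Holsteins and 0 Jerseys and off in 6 Jerseys and 0 Holsteins. The on Holsteins were cows 7, 11, 16 and 19, at 3.24 to 5.61 CPM, and the other Holsteins had means from 0.448 to 3.37 CPM. Among the Jerseys, cow 14 had 3.09 and 2.21 CPM and the others at most 0.831 CPM in a library. The log2 fold change was -2.21 (SE 0.59; adjusted p = 0.0470, edgeR), and the exact permutation p was 0.00430 (0.0865 adjusted over all genes). Without cow 14, the highest Jersey, the log2 fold change was -2.76 (adjusted p = 0.0137, edgeR), and without cows 14 and 15 it was -2.67 (adjusted p = 0.0179). With cow 14 left out, only Holsteins carried the gene past the filter of 1 CPM in at least 3 cows. A difference in this direction was thus built into both fits.

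ENSBTAG00000021565 had an adjusted p of 0.0508 (edgeR). It passed the filter of 1 CPM in at least 3 cows only through the 3 Holsteins in which it was on, so it had to differ. Its fitted log2 fold change rests on the 2 Jersey read pairs and on the prior count of the fit. ENSBTAG00000038128, with all 5 off cows in the Jerseys, differed by -1.76 on the log2 scale (SE 1.01; edgeR, adjusted p = 0.362) and an exact permutation p of 0.0133 (0.145 adjusted over all genes).

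The breed calls depended on which cows were kept. With each cow left out in turn, ENSBTAG00000004270 was called in all 19 fits, ENSBTAG00000047764 in 6 (without cow 3, 12, 13, 14, 15 or 16) and ENSBTAG00000001308 in 3 (without cow 1, 6 or 14), with adjusted p-values of up to 0.0478, 0.122 and 0.0946. ENSBTAG00000021565 left the test when cow 6, 9 or 11 was left out. Without cows 10 and 17, 0 of the 17 genes were called (4 at an unadjusted p under 0.05), while 0.549% of all genes tested were. Without cows 14 and 15, 4 were called, against 6.55%, and without all 4 cows 0 were called (7 at an unadjusted p under 0.05), against 1.6%. In the filtered breed fits ENSBTAG00000021565 was tested only through Holsteins, as was ENSBTAG00000001308 wherever cow 14 was left out. Counts that include these genes cannot be read against the share of all genes. With cows 10, 14, 15 and 17 left out, the log2 fold changes were 3.07 for ENSBTAG00000047764 (adjusted p = 0.119, edgeR), 2.15 for ENSBTAG00000004270 (0.111) and -2.85 for ENSBTAG00000001308 (0.0860). The directions of these 3 genes were the same in all of the fits named here. Fitted in limma-voom with a replicate block for the cow, 6 of the 17 genes were called, against 6.81% of all genes. This block used a correlation of 0.089 shared by all genes. It thus took a cow's libraries as nearly independent, which may give too many calls for genes chosen for like libraries. With DESeq2 4 were called, against 6.71%.

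**Figure D5:**
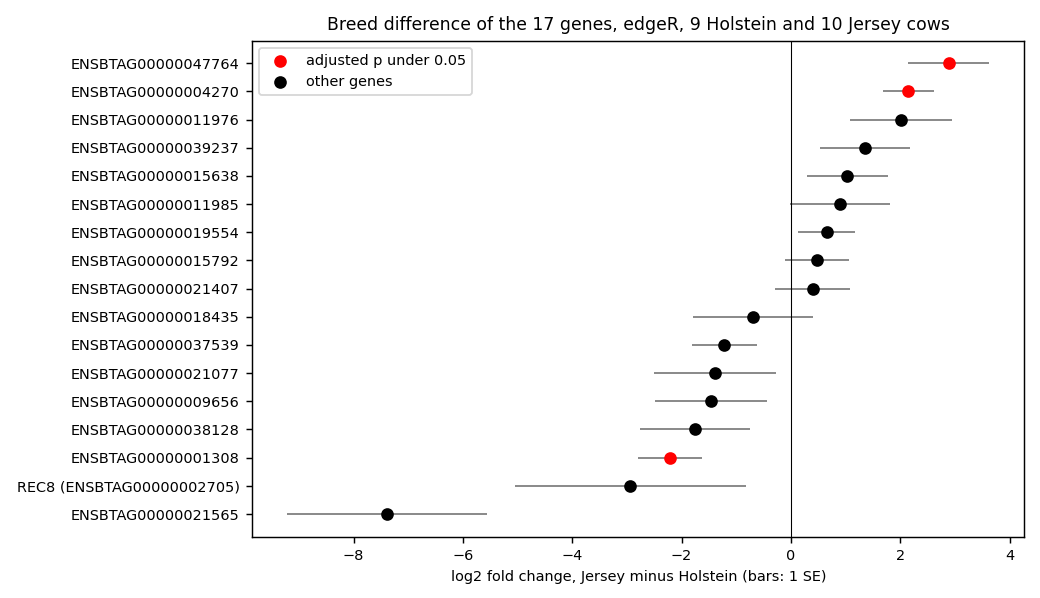
Log2 fold change between the breeds (Jersey minus Holstein) of the 17 genes with 1 SE, from edgeR on the summed libraries of 9 Holstein and 10 Jersey cows. Red points are the 3 genes with an adjusted p under 0.05, 2 higher in Jersey and 1 higher in Holstein; the widest bars belong to REC8 and ENSBTAG00000021565.

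By parity, 0 of the 17 genes passed the edgeR test of both parity terms, against 0.0644% of all genes tested; 1 had an unadjusted p under 0.05, against 8.68%, and DESeq2 also called 0. That gene was ENSBTAG00000021565 (adjusted p = 0.383, edgeR), which was tested only through its 3 on cows, 2 of parity 2 and 1 of parity 3, so that a difference from parity 1 was built in. Without cows 10, 14, 15 and 17, 0 of the 17 genes were called by parity, against 0.0324% of all genes, and 4 had an unadjusted p under 0.05, against 7.63%. ENSBTAG00000001308 had cow means of up to 0.971 CPM in the 7 cows of parity 3 and up to 4.22 and 4.75 CPM at parity 1 and 2 (adjusted p = 0.603, edgeR). ENSBTAG00000018435 was on in 0 of 7 cows of parity 1 and in 3 of 7 of parity 3 (adjusted p = 0.626, edgeR). At parity 1, 6 cows were off and cow 17 was split, with a mean of 2.39 CPM. Cow 10, of parity 2, was split too, and both of these cows have crossed labels.

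For RFI in the Holsteins, with parity and diet in the model and the libraries as samples, 12 of the 17 genes passed the filter of 1 CPM in at least 8 libraries. REC8 was called, at -6.51 for high-RFI minus low-RFI on the log2 scale (SE 0.68; adjusted p = 0.000113, edgeR), against 0.0665% of all genes called. At an unadjusted p under 0.05 there were 4 of the 12, against 8.2%, and DESeq2 called 2, against 0.507%. Its 8 libraries above the filter were those of the 4 on cows, all of them low-RFI, so a gene passing in this way had to differ. REC8 left the test when cow 1, 6, 11 or 16 was left out. Without cow 15, the Holstein with crossed labels, it was at -6.58 (adjusted p = 0.00268, edgeR), against 0.109% of all genes called, and again all of its libraries above the filter were those of the 4 on cows. Over cows it had an exact permutation p of 0.0397, where the smallest possible is 0.00794, with cow 19 as low as the high-RFI cows. Without cow 15 the exact permutation p was 0.125, where the smallest possible is 0.0179. With the libraries of a cow summed, 0 of the 12 tested genes and 0 of all genes were called by edgeR (2 and 555 at an unadjusted p under 0.05). A replicate block for the cow in limma-voom gave REC8 a log2 fold change of -6.16 (adjusted p = 0.0200), again through the 4 on cows. This block used a correlation of 0.19 shared by all genes, so it took a cow's libraries as nearly independent. For a gene chosen for like libraries that p-value may be too small.

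For RFI in the Jerseys, 12 genes passed the filter and 0 were called (2 at an unadjusted p under 0.05), against 0.0336% of all genes; DESeq2 called 0 too. REC8, on in 2 high-RFI and 0 low-RFI Jerseys, was below the filter and was called only without one (log2 fold change 3.76, adjusted p = 0.0399, edgeR), in a fit that takes the libraries as samples; over cows its exact permutation p was 0.0794. ENSBTAG00000001308, also below the filter, had cow means of 0.0234 to 0.286 CPM in the 5 high-RFI Jerseys and of 0.340 to 2.65 CPM in the 5 low-RFI Jerseys. The groups did not overlap, which was so for 0.467% of 12419 genes, and the exact permutation p of 0.00794 is the smallest these 10 cows can give. All of the high-RFI and most of the low-RFI values were under 0.5 CPM or near it, and cow 14, whose libraries went against their labels, was the highest. ENSBTAG00000019554 had exact permutation p = 0.0317 and ENSBTAG00000004270 p = 0.0397, both with the higher mean in the high-RFI Jerseys. Without cows 10, 14 and 17, which leaves 5 high-RFI and 2 low-RFI Jerseys and a smallest possible p of 0.0476, the exact permutation p was 0.0952 for ENSBTAG00000001308, 0.190 for ENSBTAG00000019554 and 0.0952 for ENSBTAG00000004270. None of these p-values was adjusted for the 34 such tests, 17 in each breed. In edgeR without these 3 cows, 8 of the 17 genes passed the filter and 0 were called, against 0.0258% of all genes, and 1 had an unadjusted p under 0.05, against 5.82%.

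A difference in the effect of RFI between the breeds was tested on the summed libraries. By edgeR, 0 of the 17 genes and 0 of 12419 genes (0%) passed, with 3 and 674 (5.43%) at an unadjusted p under 0.05. REC8 had the largest difference among the 17, 10.62 on the log2 scale (SE 2.05; adjusted p = 0.334, edgeR). REC8 was on in low-RFI cows among the Holsteins and in high-RFI cows among the Jerseys. It passed the filter of 1 CPM in at least 3 cows only through these 6 on cows. A difference of this sign was thus built in, here and in the fit without the cows with crossed labels. Without cows 10, 14, 15 and 17, 0 of the 17 and 0% of all genes passed, and 1 of the 17, again REC8, had an unadjusted p under 0.05, against 5.94%.

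None of these genes passed the test between the diets in the study's model. In the Holsteins 0 of 12 tested genes were called between HC and C, against 0.782% of all genes, and in the Jerseys 0 of 12, against 0.37%; in both breeds 0 of the 12 had an unadjusted p under 0.05, and DESeq2 called 0. With no filter, 1 of the 17 genes had an unadjusted p under 0.05 in the Jerseys and 0 in the Holsteins. Without cow 15, 0 of 12 were called in the Holsteins by edgeR (0 at an unadjusted p under 0.05), against 0.452% of all genes. Without cows 10, 14 and 17, 0 of 8 were called in the Jerseys, against 0.0602%, and 0 had an unadjusted p under 0.05, against 7.67%. When each cow was its own replicate block in edgeR, so that HC and C were compared as pairs, 1 gene was called in the Holsteins, against 2.87% of all genes. It was REC8, whose log2 fold change, HC minus C, was 0.88 (SE 0.15; adjusted p = 0.00750, edgeR). It was higher on HC in all 4 on Holsteins, but of the on Jerseys cow 13 was lower on HC. In the Jerseys the block called 0. The study fed the diets in a crossover whose order differed between cows. Period was in none of these fits, so its part in the differences between diets was not tested. The rule asks for like states on both diets in at least 6 cows, so diet is not fully independent of the choice of genes.

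Few other genes shared the patterns of the 17. Among 13510 genes compared across the 38 libraries, ENSBTAG00000026163 followed ENSBTAG00000001308 with r = 0.83, at 0 to 6.98 CPM, and ENSBTAG00000003352 followed ENSBTAG00000009656 with r = 0.82, at 0 to 4.70 CPM. For 13 of the 17 genes no other gene reached 0.8 in size. These r share libraries and cows and are a description.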

How the data were processed

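RNA-Seq libraries (Illumina TruSeq Stranded mRNA kit) of 38 liver biopsies were sequenced in 1 run. The authors used cutadapt to trim adapters and STAR 2.3.0 to align to UMD3.1 with the Ensembl annotation, and deposited the counts of read pairs per gene from HTSeq-count, without normalization; the HTSeq-count version and strand setting are not given in the sources used here. Rows of pairs outside genes (20.1% to 25.1% of all pairs) or on several genes (0.0120% to 0.0285%) were left out. Overlapping or near-identical genes may lose pairs in this way or take pairs from each other, which was not tested.

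CPM were computed from these counts. The 17 genes, the lists and the tests were chosen with earlier results of these data known. Breed, parity and the breed by RFI interaction were tested with edgeR 4.0.16 (TMM, quasi-likelihood F-test) on the summed libraries of 19 cows, for genes with 1 CPM in at least 3 cows. RFI and diet were tested per breed on libraries, as in the study, where 8 or more Holstein (10 or more Jersey) libraries had 1 CPM. Benjamini-Hochberg adjustment ran over all genes tested, with 0.05 as the threshold. Tests are two-sided; SE is the log2 fold change over the root of F. Exact permutation tests used the cow mean of log2(CPM + 0.5). On simulated data with 200 of 12341 genes changed by 1.5 on the log2 scale between the breeds, edgeR recovered 97.5% with 10 false calls. The simulated shift was the same in all cows of a breed. That rate does not carry over to genes that are on in only some cows of a breed.

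The cow numbers in the labels pair the C and HC libraries, since each cow gave both. The deviations of a cow's libraries correlated over 0.1 in 16 of 19 cows (median 0.40, lowest -0.14, 12509 genes). The cows below were 5 (0.064), 10 (0.063) and 14 (-0.14), while cows 15 and 17 were at 0.20 and 0.21. Cow 5 was kept among the 15 other cows. Blocked fits used limma 3.58.1 (voom, duplicateCorrelation) or the cow as a fixed effect in edgeR. Other alternatives were DESeq2 1.42.0 and its size factors, other filters, other limits of the rule, CPM on TMM library sizes, breed alone, and each cow left out. The fits and permutation tests without cows 14 and 15, or without cows 10, 14, 15 and 17, were chosen after seeing the data.

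Named were the 10 genes with the highest median on level, the called genes, REC8 as named in the study's lists, the 3 genes nearest each side of the limit, and, to account for all, the rest of the 17. Grouping by neighbouring position or gene family could not be done with identifiers alone, as 0 of them matched the reference gene table. P-values and intervals measure the spread between these cows or counting error only, except in the RFI and diet fits with libraries as samples. There each cow entered as 2 libraries, so the p-values do not measure the spread between cows.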

Additional observations from a re-analysis of the deposited data

Results flagged for a closer look

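In each breed and RFI group of 4 or 5 cows, the highest and the lowest cow mean of each of the 17 genes were set against the others on the log2(CPM + 0.5) scale. A gap above Dixon's 95% critical value was seen in 14 of 68 groups. These levels chose the genes, and the rule asks for cows far apart, so the rate of about 1 in 20 groups that chance gives elsewhere does not apply and the gaps are a description, not a test.

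Low cows among on cows were seen for ENSBTAG00000021407 in all but the low-RFI Jerseys. Cow 2 was at 0.131 CPM against 18.6 to 20.1 CPM in the other high-RFI Holsteins, cow 16 at 0.0253 against 16.5 to 40.2 CPM in the low-RFI Holsteins, and cow 13 at 0.0966 against 17.2 to 38.8 CPM in the high-RFI Jerseys. For ENSBTAG00000009656, cow 7 was at 0 against 27.0 to 42.2 CPM in the high-RFI Holsteins. For ENSBTAG00000047764, cow 12 was at 0.0471 against 3.03 to 5.98 CPM in the high-RFI Jerseys.

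High cows among off or low cows were cow 9, a high-RFI Holstein, for ENSBTAG00000018435 (9.33 against 0.0780 to 0.106 CPM) and for ENSBTAG00000021565 (4.404 against 0 to 0.0265 CPM). Cow 19 stood out in the low-RFI Holsteins for ENSBTAG00000011976 (2.91 against 0.177 to 0.425 CPM) and cow 16 for ENSBTAG00000047764 (3.24 against 0 to 0.271 CPM). Cow 3 stood out in the high-RFI Jerseys for ENSBTAG00000037539 (2.25 against 0.372 to 0.692 CPM).

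Cows whose libraries went against their labels made up the rest. Cow 14 stood apart from the low-RFI Jerseys for ENSBTAG00000001308 (2.65 against 0.340 to 0.676 CPM), ENSBTAG00000011985 (0.0204 against 3.21 to 6.78 CPM) and ENSBTAG00000015638 (0.426 against 5.43 to 12.02 CPM). Cow 15 stood apart from the high-RFI Holsteins for ENSBTAG00000015638 (0.291 against 8.01 to 9.81 CPM). The part of the labels in these values was not tested.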

How the results depend on the processing

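The number of genes chosen moved with the limits: 27 with on at 2 CPM, 11 with off at 0.25 CPM, 37 with off at 1 CPM, 33 with at least 2 cows on and 2 off, 11 with 4 and 4, 52 on the C and 42 on the HC libraries alone, and 13 to 17 with each cow left out. It was 14 with on at 5 CPM and 20 on TMM library sizes. The 3 breed calls became 6 with the replicate block (cow as a random effect), 1 by the exact permutation test, 0 without cows 10 and 17, 0 without cows 10, 14, 15 and 17, and 1 to 4 with each cow left out. The 4 calls without cow 14 included ENSBTAG00000021565 and ENSBTAG00000001308, both then tested only through Holsteins. For RFI in the Holsteins the 1 call became 2 with DESeq2 (REC8 and ENSBTAG00000019554), 0 with summed libraries and 0 to 1 with each cow left out, REC8 then failing the filter at 0. For diet in the Holsteins the replicate block gave 1 call, REC8, and leaving out each cow 0 to 1. For RFI in the Jerseys no filter gave 1. The blocks changed no other number of calls for RFI, diet or parity. ENSBTAG00000018435 turned to a log2 fold change of 0.89 between the breeds without cow 9 (adjusted p = 0.678, edgeR) in a range of -1.54 to 0.89 with each cow left out; no other gene changed direction by breed in any fit. In all, 140 of the alternatives for these numbers of genes stayed within 1.5 times and 30 did not. Levels near 0.5 CPM rest on 8.74 to 12.2 read pairs, which limits the off calls.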
